A study of Rattus norvegicus with 6 samples.

Results

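The genes described here are the nuclear genes of the mitochondrial respiratory chain and of ATP synthase, whose transcripts were counted by RNA sequencing of fetal rat islets. They were chosen by name (the Nduf genes with subunit letters A, B, C, S and V, Sdha to Sdhd, the Uqcr genes, Cyc1, Cycs, the Cox genes of subunits 4 to 8 and the Atp5 genes) and by a mean count of at least 20 per library. This gave 78 of the 17321 genes counted, with 32 genes in complex I, 4 in complex II, 9 in complex III, 16 in complex IV, 16 in complex V and 1 for cytochrome c. The name rule also brought in Atp5s and Atp5sl, which are not subunits of ATP synthase, and Cox7a2l, a factor that joins complexes III and IV. Ndufa4 was placed with complex IV, where its protein is now put, and its relative Ndufa4l2 with it.

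The 6 libraries came from 3 Sprague Dawley dams, with 1 library labelled high glucose and 1 labelled control from each. In the high glucose group fetuses of the left horn had received glucose for 48 h (4 mg/min, starting on gestational day 20), and the control group was made of fetuses of that dam's right horn. At gestational day 22 the islets of 2 pancreata were pooled for each library, picked by hand after collagenase digestion and left for 24 h in RPMI with 5 mM glucose, so all libraries had this recovery in culture. Horn side and treatment cannot be told apart, and the labels name no infusion of vehicle for the control horn. The alignment named in each file carried the horn letter opposite to that of the sample title in 6 of 6 libraries. Directions are those of the treatment labels, and under the file naming each would turn around. With 3 pairs, p-values measure only the spread between these pooled samples.

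Electrons from NADH enter the chain at complex I and those from succinate at complex II. They pass through coenzyme Q to complex III, through cytochrome c to complex IV and on to oxygen, and the proton gradient built on the way drives ATP synthase, complex V. In beta cells the ATP made this way closes potassium channels and triggers insulin secretion, which ties respiration to the response to glucose. The subunits encoded by mitochondrial DNA were not analysed here.

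Libraries held between 18077841 and 30993532 counted read pairs, the fewest in the control and high glucose libraries of dam 2 (18077841 and 22643755). All 78 members passed the filter on low counts that left 12276 genes for testing, and 71 of them had a mean count of at least 1000. Beta cell markers were present in every library, 15 of 15 genes tested, with a summed level of 38834 to 77315 TPM (counts divided by gene length, scaled to one total per library) in control and 20711 to 74272 TPM in high glucose. The 12 mesenchyme markers summed to 7482 to 13679 TPM over the 6 libraries and the 20 acinar markers to 69.6 to 2815 TPM, so the islets held other pancreatic cells as well. In such bulk libraries, fewer cells of a type and less RNA per cell cannot be told apart. Striated muscle and brown fat, tissues with other chain isoforms, left little signal. Their markers summed to at most 201 TPM and 242 TPM, and Myh8 and Elovl3 had no count in any library.

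Another 5 genes matched the names but not the count minimum. Cox6c-ps1 and Cox8b had no count, Cox8c and Ndufa1 had a mean of 0.333 counts and Atp5f1 of 4.33, against 27.5 for Cox6a2 and 82 for Ndufa10l1, the lowest of those kept. Cox8b and Cox8c are isoforms of muscle and testis, but Ndufa1 and Atp5f1 encode subunits that every complex I and every ATP synthase holds. In the rn6 annotation of the files both have exons at 2 places on 1 chromosome. Ndufa1 has 3 exons at each of 2 places on chromosome X, 706 kb apart, and Atp5f1 has 7 exons at each of 2 places on chromosome 2, 146 kb apart. The authors counted only read pairs with a mapping quality of at least 10, which leaves out pairs with equally good matches elsewhere. Whether this lowered the counts of Ndufa1 and Atp5f1 was not tested, and their counts are not read here as levels of these genes.

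Compared per length, the chain genes spanned a wide range of levels. ATP synthase held the highest summed level of the complexes, 9134 ± 582 TPM in control (SD, n = 3), followed by complex IV with 6562 ± 520 TPM, complex I with 6433 ± 740 TPM, complex III with 2591 ± 207 TPM and complex II with 858 ± 41.8 TPM. In high glucose the same sums were 8610 ± 1555, 6320 ± 976, 6240 ± 912, 2436 ± 421 and 802 ± 87.0 TPM. Together the 78 genes summed to 25725 ± 2044 TPM in control and 24553 ± 3917 TPM in high glucose, 2.57% and 2.46% of the total. In each complex the 2 groups overlapped, and the SD between dams in high glucose was larger than the difference between the group means. Both libraries of dam 2 stood above the other 4 in complexes I to V.

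**Figure D1:**
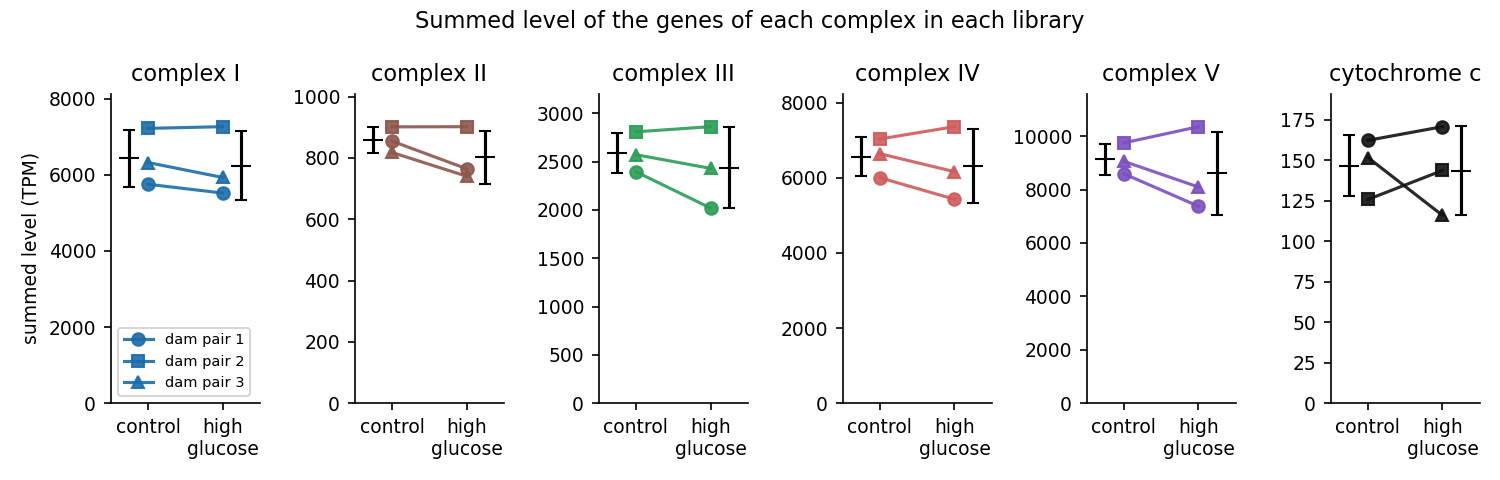
Summed level of the members of each complex (TPM, y axis) in the control and high glucose library of each of the 3 dam pairs, joined by lines; crosses beside the points give the group mean and SD (n = 3). The dam pair 2 squares lie highest in complexes I to V, and in every panel the line of dam pair 2 is level or runs up while that of dam pair 3 runs down.

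The gene of the highest level was Atp5b (chromosome 7, 2504708 to 2511748, rn6), the catalytic beta subunit of ATP synthase, at a mean of 1241 TPM. Next came Cox6a1 (1067 TPM), a small subunit of cytochrome oxidase, Atp5g2 (940 TPM), a gene of the proton-carrying ring, and Cox4i1 (849 TPM), a regulatory subunit of cytochrome oxidase. In complex III Uqcrh, the hinge protein, led at 642 TPM, in complex I the accessory subunit Ndufa11 at 486 TPM, and in complex II the membrane anchor Sdhc at 261 TPM. Cytochrome c itself (Cycs) measured 145 TPM. At the low end stood Ndufa10l1 (3.19 TPM), a relative of Ndufa10, and 4 alternative isoforms of complex IV: Cox6a2 (3.59 TPM), Ndufa4l2 (23.0 TPM), Cox4i2 (39.8 TPM) and Cox6b2 (41.0 TPM). Atp5s, with 4.57 TPM, was also low.

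The comparison of high glucose with control within dam pairs called 0 of the 78 members. Over all genes tested, the edgeR quasi-likelihood test called 2 (0.0163% of 12276, Benjamini-Hochberg adjusted p below 0.05). At an unadjusted p below 0.05 there were 0 members, against 4.82% of all genes, the edgeR adjusted p rounded to 1 for each member, and DESeq2 also called 0 members. For 0 members did the CPM values (counts scaled to a common library size) of the groups separate without overlap, against 3.31% of all genes. The fitted log2 difference (high glucose minus control) was below 0 for 70 of the 78 (89.7%), against 49.3% of all genes tested. Among other genes, it was below 0 for 70.8% of those up to 600 bases and 67.0% of those over 600 and up to 1000. The members' median length was 689 bases. Their median difference was -0.15, next to 0.00 over all genes tested. Their fitted differences ranged from -0.43 (Cox6a2) to 0.46 (Ndufa10l1), the 2 members with the lowest counts. Of the members, 13 were lower in high glucose in all 3 pairs (16.7%, against 11.3% of all genes tested). Of the members, 0 were higher in all 3 (against 11.7%). Among other genes up to 600 bases, 15.4% were lower in all 3 pairs and 7.49% higher. Among those over 600 and up to 1000 bases, 16.9% were lower in all 3 and 6.15% higher. The median of the members was -0.18 without pair 1, -0.27 without pair 2 and -0.03 without pair 3, so it rested largely on dam pair 3.

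Complex I takes electrons from NADH and is the largest of the complexes. Its 32 genes had a median log2 difference of -0.11, with 26 below 0. The 7 core subunits, which carry the flavin and the iron-sulfur clusters, had a median of -0.17 and 24 accessory subunits one of -0.11 (these role groups were put together after values had been seen). Ndufa11 (chromosome 9, 10334104 to 10338163), an accessory subunit of the membrane arm, measured 109, 267 and 137 CPM in the control libraries of dams 1 to 3 and 117, 255 and 102 CPM in the high glucose libraries. The difference between dams, with dam 2 highest in both groups, was far larger than that between treatments. Ndufb9, likewise in the membrane arm, measured 113, 258 and 128 CPM in the control libraries, against 138, 225 and 102 CPM under high glucose, again with dam 2 highest in both groups.

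The lowest fitted value in complex I belonged to Ndufb6 (chromosome 5, 56567109 to 56576676), another membrane arm subunit, with 53.1, 53.9 and 70.6 CPM in the control libraries, against 32.9, 71.0 and 44.0 CPM under high glucose. It was lower in dams 1 and 3 and higher in dam 2 (log2 difference -0.33, SE 0.24). Ndufa7, Ndufb2, Ndufs7 and Ndufa6 were lower in high glucose in each pair and were among those of smallest p. Ndufa7 (chromosome 7, 18683553 to 18696332), a subunit of the matrix arm, measured 59.8, 85.4 and 81.8 CPM in the control libraries, against 42.0, 83.4 and 62.0 CPM under high glucose. Its log2 difference was -0.32 (SE 0.19, unadjusted p = 0.119 in the edgeR fit). For Ndufb2 the values were 48.3, 91.7 and 80.7 CPM in the control libraries, against 42.6, 88.6 and 48.3 CPM under high glucose, a log2 difference of -0.32 that came mostly from dam 3 (-0.74). Ndufs7, a core subunit with an iron-sulfur cluster close to the coenzyme Q site, went from 48.7 to 32.8 CPM in dam 1, 91.2 to 80.8 in dam 2 and 61.6 to 59.1 in dam 3, so here dam 1 differed most. Ndufa6 measured 63.4, 116 and 102 CPM in the control libraries, against 59.1, 114 and 72.7 CPM under high glucose. In all 4 the control and high glucose values overlapped across dams.

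The highest fitted value, 0.46 for Ndufa10l1 (chromosome 6, 62796951 to 62798384), had an SE of 0.60 and turned to -0.33 without pair 2. This row is a single-exon relative of Ndufa10, and its level differed by dam: 0.377, 0.495 and 8.01 CPM in the control libraries, against 0.377, 2.49 and 5.39 CPM under high glucose. Dam 3 was highest in both groups. Ndufs1, the largest core subunit, was close to even between the groups at 127 ± 21.1 CPM in control, against 131 ± 2.69 CPM in high glucose (SD, n = 3).

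Complex II is succinate dehydrogenase, the enzyme shared by the chain and the citric acid cycle, and none of its subunits is encoded by mitochondrial DNA. Its 4 genes had a median log2 difference of -0.22. The flavoprotein Sdha (chromosome 1, 31545631 to 31570601), which oxidizes succinate, measured 171, 201 and 172 CPM in the control libraries, against 191, 195 and 161 CPM under high glucose, with a fitted difference of 0.00 (SE 0.18). For the iron-sulfur protein Sdhb (chromosome 5, 159484378 to 159505062) the values were 111, 233 and 148 CPM in the control libraries, against 110, 204 and 109 CPM under high glucose. Its differences in the pairs were -0.02, -0.19 and -0.44 (log2). The 2 membrane anchors Sdhc and Sdhd stood at 206 ± 44.0 and 168 ± 18.5 CPM in control and at 181 ± 65.2 and 148 ± 52.4 CPM in high glucose. Their log2 differences in dam 3 were -0.60 and -0.51, and in dam 2 they were 0.03 and 0.14. Within the complex, the longest transcript (Sdha, 2277 bases) differed least in dam 3 (-0.10). The shortest (Sdhb, 970 bases, -0.44) also differed less there than Sdhc and Sdhd.

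In complex III, which hands electrons from coenzyme Q to cytochrome c, all 9 genes had fitted values below 0, with a median of -0.18. Uqcr11 (chromosome 7, 12171185 to 12175837), a small accessory subunit, had the smallest unadjusted p of the members named (0.0854). It measured 89.2, 180 and 151 CPM in the control libraries, against 70.3, 164 and 104 CPM under high glucose, lower in each pair, with a log2 difference of -0.34 (SE 0.18). Uqcrc1, a core protein of the matrix side, was also lower in each pair (-0.28, -0.01 and -0.26). Uqcrh measured 146, 394 and 181 CPM in the control libraries, against 176, 338 and 165 CPM under high glucose, so that dam 2 was above the other dams in both groups and the fitted difference was -0.03. Cyc1 (chromosome 7, 117409576 to 117411953), the haem subunit cytochrome c1, went from 159 to 86.5 CPM in dam 1, from 152 to 221 in dam 2 and from 186 to 138 in dam 3. Its difference without pair 1 was 0.05, against -0.26 (SE 0.27) with all pairs.

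Complex IV, cytochrome c oxidase, passes the electrons to oxygen. Its 16 genes all had fitted values below 0 (median -0.17), although 7 of them were higher in high glucose in dam 2. Cox6a1 measured 276, 537 and 350 CPM in the control libraries, against 265, 568 and 301 CPM under high glucose, and Cox4i1 316, 494 and 396 CPM against 253, 542 and 299 CPM. In both genes dam 2 was the highest of its group and the direction differed between pairs. Cox6b1, which lies at the contact between the monomers of the enzyme, and Cox8a, a small membrane subunit, were lower in each pair. Cox8a (chromosome 1, 222466575 to 222468896) went from 174 to 164, 299 to 282 and 229 to 155 CPM in dams 1 to 3. Its log2 difference of -0.24 (SE 0.19) was made mostly by dam 3. For Cox6c the pair differences were 0.36, -0.12 and -0.27, and the fitted value was -0.01.

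Cox7a2l (chromosome 6, 6695821 to 6709783), the supercomplex factor, measured 186, 346 and 319 CPM in the control libraries, against 201, 333 and 192 CPM under high glucose. Its difference in dam 3 was -0.73 while dams 1 and 2 stood at 0.12 and -0.05, and without pair 3 the fitted difference was 0.03 in place of -0.22. Cycs (chromosome 4, 80331226 to 80333326), the mobile carrier between complexes III and IV, behaved alike, with 104, 117 and 121 CPM in the control libraries, against 114, 132 and 74.5 CPM under high glucose. Its differences were 0.14, 0.17 and -0.70, and without pair 3 the value was 0.16 against -0.13 with all pairs.

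Complex V, ATP synthase, has a catalytic head (F1), a ring of c subunits in the membrane and a stalk. Of its 16 genes 15 had fitted values below 0, with a median of -0.16. The medians were -0.16 for 5 genes of the head, -0.19 for 3 genes of the ring and -0.16 for 6 genes of stalk and membrane part. Atp5b measured 1302, 1495 and 1566 CPM in the control libraries, against 1232, 1609 and 1108 CPM under high glucose, a range in which dams 1 and 2 were nearly level and dam 3 was lower by 0.50 on the log2 scale. Without pair 3 its fitted difference was 0.02 in place of -0.16. Atp5d, the delta subunit of F1, was lower in each pair, at 194, 508 and 252 CPM in the control libraries, against 188, 446 and 185 CPM under high glucose. Atp5g1 (chromosome 10, 83895947 to 83898527) had the lowest fitted value of the complex, -0.34 (SE 0.20), with 102, 163 and 129 CPM in the control libraries, against 69.7, 179 and 84.5 CPM under high glucose. The highest fitted value was 0.10 (SE 0.34) for Atp5s, a low-count gene outside the enzyme.

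**Figure D2:**
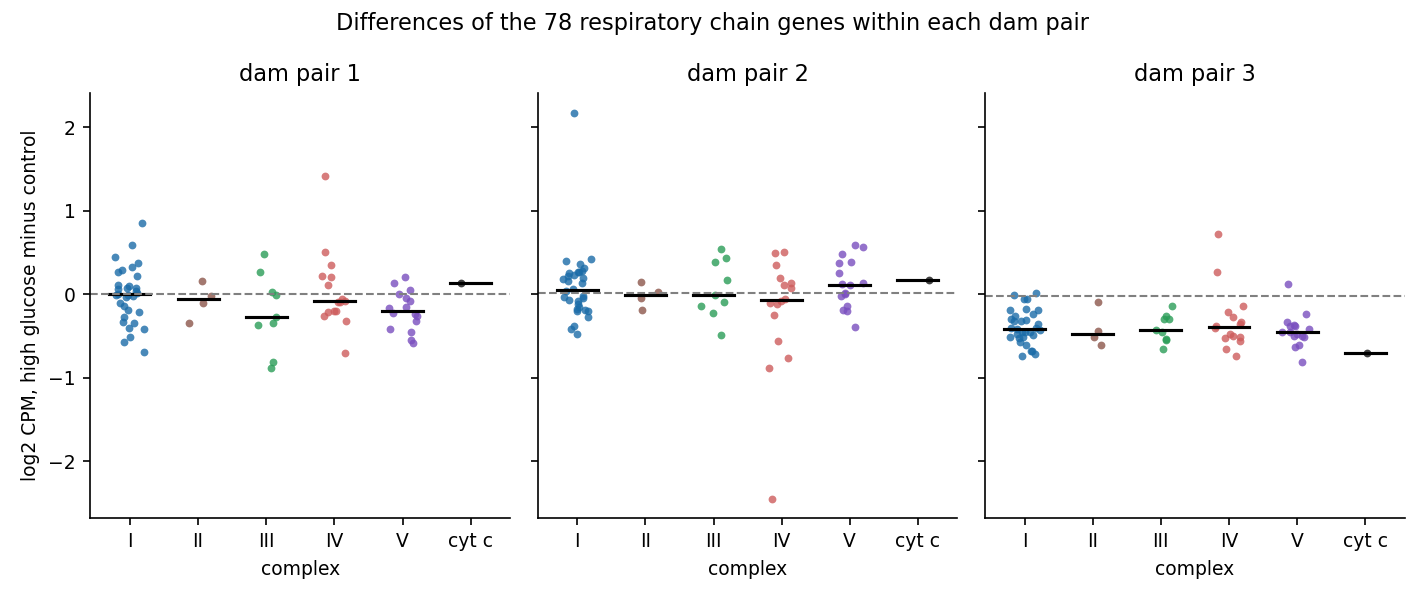
Log2 CPM difference, high glucose minus control, for each member (points) in the 3 dam pairs, by complex, with the median of each complex as a black bar and that over all genes tested as a dashed line. In pairs 1 and 2 the points lie on both sides of 0, with medians over all members of -0.07 and 0.04, and in pair 3 nearly all lie below it, with a median of -0.43.

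Seen pair by pair, the members had no common direction in dams 1 and 2. In dam 1 their median difference was -0.07 with 47 of 78 lower in high glucose, and in dam 2 it was 0.04 with 36 lower. In dam 3 it was -0.43 and 74 of 78 were lower, while over all genes tested the medians were 0.00, 0.02 and -0.02 and 51.3% of genes were lower in dam 3. The 71 members with a mean count of at least 1000 had SDs across genes of 0.33, 0.26 and 0.18 in dams 1 to 3. Over all 78, with the few low-count members, the SDs were 0.36, 0.48 and 0.24. Medians in dam 3 were -0.41, -0.48, -0.43, -0.40 and -0.45 for complexes I to V.

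Markers of several cell types differed within dam pairs, some of them most in dam 3. The direction of the median changed between pairs for beta cell, alpha cell, acinar and mesenchyme markers. The 15 beta cell markers had medians of 0.91, 0.02 and -1.83 in the 3 pairs and were all lower in dam 3, and the 8 alpha cell markers had medians of 0.20, 0.20 and -1.001. Acinar markers had medians of -0.39, 0.53 and 3.38, and those of immune cells -0.60, -0.41 and -1.27. Other markers differed most in another dam. Medians were 1.11, 0.20 and 0.61 for duct, 0.46, -0.18 and -0.20 for mesenchyme and -0.12, -1.22 and -0.14 for endothelial markers. The 9 erythroid markers tested had medians of -4.58, -1.26 and -2.32, and 1 of them was called, the only call in these lists. Fitted values were below 0 for all 9 erythroid, all 12 immune and all 12 endothelial markers, against 49.3% of all genes tested. Lower in all 3 pairs were 77.8% of the erythroid, 75% of the immune and 33.3% of the endothelial markers, against 11.3% of all genes tested. The part of these cell types in the members' values was not tested.

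Transcript length moved with the differences in dam 3. Chain transcripts are short, with a median of 689 bases against 2161 for all genes tested. Over the 5295 other genes with a mean count of at least 1000, the difference in dam 3 tracked gene length (Spearman rho 0.48 across genes, which are not independent replicates), and much less so in dams 1 and 2 (0.08 and 0.02). In dam 3 the genes outside the chain had medians of -0.29 up to 600 bases, -0.24 between 600 and 1000, -0.13 between 1000 and 2000, 0.05 between 2000 and 4000 and 0.33 above 4000. Among the members alone, 71 genes of at least 1000 counts, rho with length in dam 3 was 0.06. After the length trend of the other genes was subtracted, a step added after the data had been seen, the members' medians were 0.10, 0.03 and -0.18, with 65 of 78 lower in dam 3. The median of the mean over pairs was then 0.00 (-0.0005), in place of -0.15, and ranged from -0.11 in complex II to 0.05 in complex I. On the TPM scale, where the median of all genes shifted by 0.30 in dam 3, the members' medians were -0.13, 0.06 and -0.12, and their mean over pairs had a median of -0.06 next to 0.09 over all genes. The part of length in the difference of dam 3 was measured only through these adjustments.

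**Figure D3:**
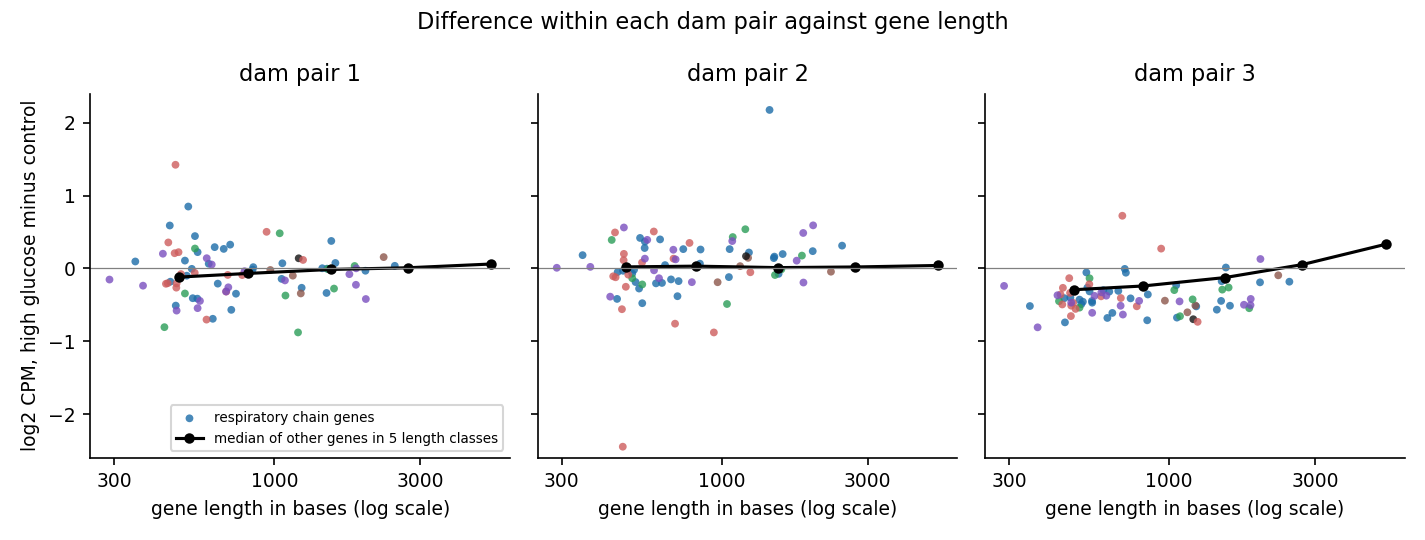
Log2 CPM difference of each member (points, colored by complex) against gene length in bases (log scale) in the 3 dam pairs; the black line joins the medians of all other tested genes in 5 length classes. In dam pair 3 the line climbs from -0.29 for the shortest class to 0.33 for the longest, and most members lie below it.

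Genes of the cytosolic ribosome, which are as short (median 696 bases) but held more of the total (15.3% against 2.57% of TPM in control), gave medians of -0.22, 0.11 and -0.52 over 79 genes in the 3 pairs. After the length trend was subtracted their median in dam 3 was -0.29, beyond the -0.18 of the chain genes. For 68 genes of the mitochondrial ribosome it went from -0.20 to 0.03.

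Members with higher differences in dam 1 tended to have lower ones in dam 2, although 13 of the 78 were lower in all 3 pairs. Across the 71 members with a mean count of at least 1000, the differences in pair 1 and pair 2 had a Pearson correlation of -0.65, against -0.08 over the 5295 other genes of that abundance. The 2 pairs share no library, but members share their library's composition, and the values only describe these libraries. The correlation between pairs 1 and 3 was 0.26 and that between pairs 2 and 3 was -0.32.

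The genes at both ends of this pattern came from several complexes. Cyc1 (-0.88 in dam 1, 0.54 in dam 2), Cox5a (-0.70 and 0.51), Atp5l (-0.58 and 0.56) and Ndufa5 (-0.41 and 0.42) were lower by more than 0.4 in dam 1 and higher by more than 0.4 in dam 2. Ndufb4 (0.59 and -0.42), Uqcrb (0.48 and -0.49) and Ndufa12 (0.44 and -0.48) had the reverse. The limit of 0.4 was set after the values were seen. It was passed by 4 and 3 of 71 members (5.63% and 4.23%), and by 1.91% and 2.81% of the other genes. Cox5a, a matrix-side subunit of cytochrome oxidase, measured 118.6, 113 and 154 CPM in the control libraries, against 72.8, 160 and 118 CPM under high glucose. Uqcrb, which binds near the coenzyme Q site of complex III, measured 65.0, 173 and 84.4 CPM in the control libraries, against 90.8, 123.3 and 68.6 CPM under high glucose. In Cox5a the control libraries of dams 1 and 2 were about level and the high glucose ones apart, whereas in Uqcrb dam 2 stood above dam 1 in both groups.

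**Figure D4:**
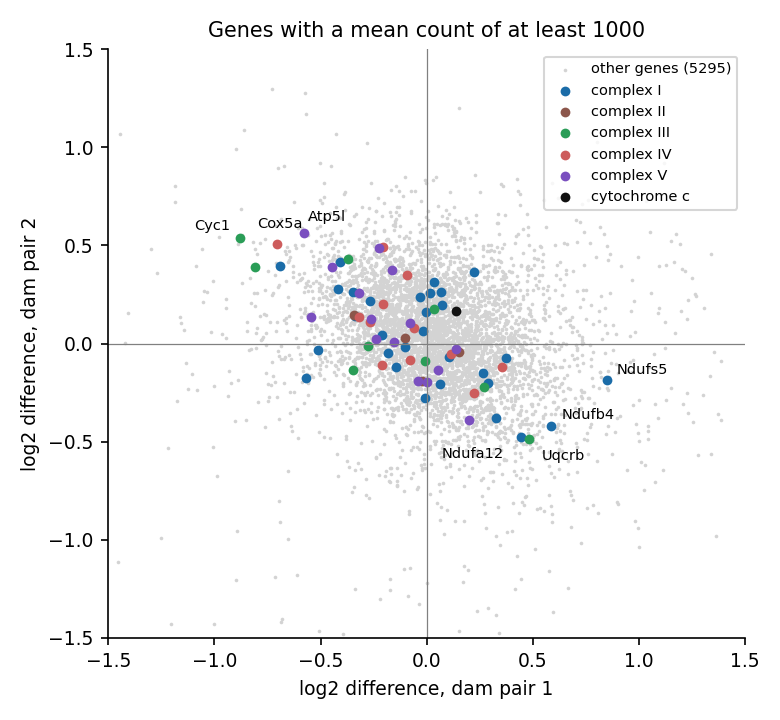
Log2 CPM difference in dam pair 1 (x axis) against that in dam pair 2 (y axis) for genes with a mean count of at least 1000; colored points are 71 members and grey points 5295 other genes, of which 57 lie outside the axes. The members run from upper left (Cyc1, Cox5a, Atp5l) to lower right (Ndufb4, Uqcrb, Ndufs5), with a Pearson correlation of -0.65.

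Members also varied by their level in dam 2. Both of its libraries stood above the other 4 for 51 of the 71 members (71.8%), against 30.4% of the 5295 other genes. The excess of dam 2 over the mean of the other dams on the log2 CPM scale had a median of 0.45 in control and 0.83 in high glucose for members, against 0.08 and 0.09 for the others. Across members the excess in the 2 groups had a Pearson correlation of 0.51 (0.69 over the other genes). This was noticed in the data and is given as a description. It uses the same libraries as the contrast of pairs 1 and 2 and is not separate from it. The 10 members of largest excess in control had median differences of 0.27 and -0.20 in pairs 1 and 2. The 10 of smallest excess had -0.24 and 0.39. Ribosomal protein genes were also highest in dam 2. Genes of the cytosolic ribosome summed to 188680 and 198444 TPM in its control and high glucose libraries, against 108653 to 142132 TPM in the other 4, and those of the mitochondrial ribosome to 6396 and 6693 TPM against 4666 to 5746 TPM. The excess in control was larger for shorter genes, with a Spearman rho across genes of -0.36 over the 5295 other genes and -0.30 over the 71 members, and members are short. The dam 2 libraries were also those of lowest total count. The parts of length and depth in the excess were not tested.

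Ndufb10, an accessory subunit of complex I, led with an excess of 1.48 in control and 1.35 in high glucose, at 61.3, 192 and 76.7 CPM in the control libraries, against 73.8, 173 and 61.9 CPM under high glucose. Uqcrh followed with 1.28 and 0.99, and Atp5d had 1.20 and 1.26. At the other end Uqcrc2, a core protein of complex III, was below the mean of the other dams (-0.56 and -0.13). So was Ndufs1 (-0.40 and -0.02). In high glucose the dam 2 value of both genes lay between those of dams 1 and 3. Uqcrh and Uqcrc2, both of complex III, thus lay at opposite ends.

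Some subunits come in isoforms whose choice marks a tissue or a state, and their shares compare genes within a library. Cox4i2, Cox6a2, Cox6b2 and Ndufa4l2 are known from lung and pericytes, from muscle, from testis and from low oxygen, in that order. Atp5g1, Atp5g2 and Atp5g3 encode the same mature ring subunit c behind different import sequences. In these islets Cox4i1, Cox6a1, Cox6b1 and Ndufa4 held most of the level of their sets. Cox4i2 made up 2.04%, 5.11% and 4.61% of the Cox4i level per length in control and 2.38%, 2.81% and 9.57% in high glucose. Ndufa4l2 made up 1.65%, 3.80% and 9.58% of its set in control and 2.48%, 1.65% and 15.5% in high glucose. For both the largest share was that of the dam 3 high glucose library, with dams 1 and 3 higher and dam 2 lower in high glucose.

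Cox6b2 held 11.6% ± 3.30 of its set in control, against 11.9% ± 2.30 in high glucose (SD, n = 3), and Cox6a2 0.374% ± 0.213 against 0.309% ± 0.204. Cox6a2 rests on a mean of 27.5 counts. Within the ring set, Atp5g2 held 43.7%, 56.6% and 46.6% in control and 51.4%, 50.7% and 49.6% in high glucose. Atp5g3 held 32.7% ± 5.56 and 32.8% ± 1.45, and Atp5g1 18.3% ± 1.22 and 16.7% ± 1.70. The order Atp5g2, Atp5g3, Atp5g1 was the same in all 6 libraries, and the shares of the high glucose libraries lay closer together than those of control for Atp5g2 and Atp5g3. None of the 7 shares differed by an exact sign-flip permutation test over pairs, two-sided (p from 0.5 to 1, Benjamini-Hochberg adjusted p = 1 for each). With 3 pairs its smallest p is 0.25, so it could not pass. Pericyte markers, a list of 7 genes added after the values were seen, had medians of 0.11, -0.63 and -0.35 in the 3 pairs, and their part in the share of Cox4i2 was not tested.

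**Figure D5:**
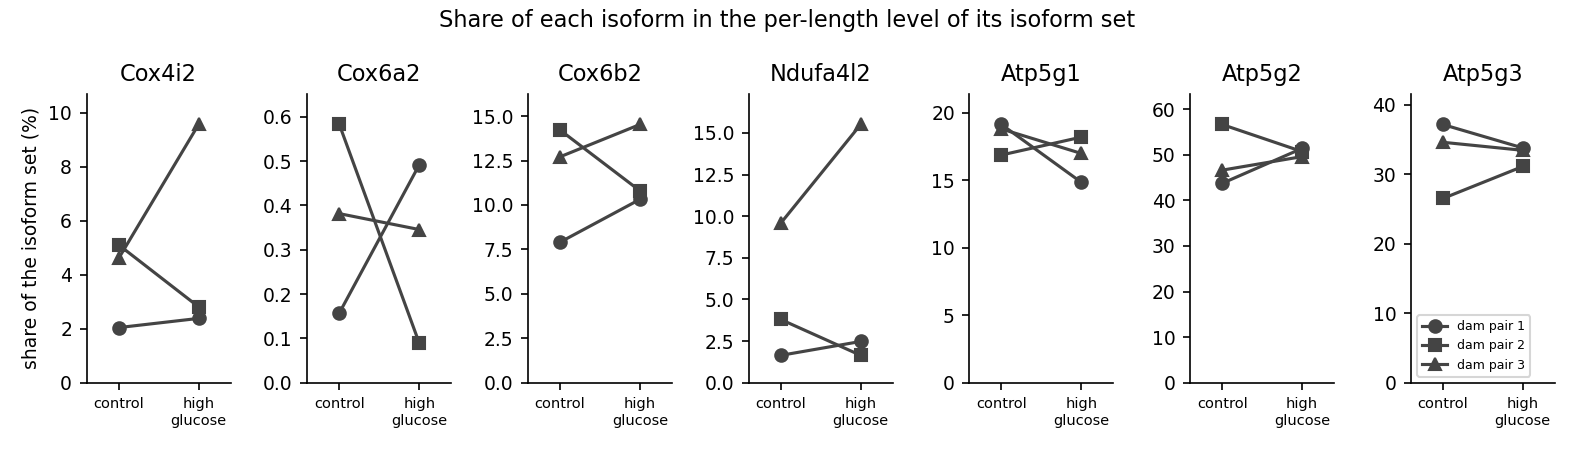
Share of each isoform (percent of the level per length of its isoform set, y axis) in the control and high glucose library of each dam pair, joined by lines. The lines of the 3 pairs cross or run in different directions in each panel, and the y scales differ between panels.

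The promoters of the ring trio and of the Ndufa4 pair are shown because these isoforms make like proteins from different genes at different levels. They are the 150 bases before the start of the RefSeq gene (assembly GRCr8, strand of the gene, 5′ to 3′), where the Atp5g genes are listed under their newer symbols Atp5mc1, Atp5mc2 and Atp5mc3. Capitals mark matches to the NRF1 core GCGCATGC or to ACGTG, the hypoxia response core, on either strand, with overlapping matches run together.
Atp5g1 (chr10:81523346-81523495, minus strand): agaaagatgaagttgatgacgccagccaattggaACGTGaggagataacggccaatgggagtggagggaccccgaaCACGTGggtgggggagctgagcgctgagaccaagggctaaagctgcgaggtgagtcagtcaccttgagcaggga
Atp5g2 (chr7:135678219-135678368, minus strand): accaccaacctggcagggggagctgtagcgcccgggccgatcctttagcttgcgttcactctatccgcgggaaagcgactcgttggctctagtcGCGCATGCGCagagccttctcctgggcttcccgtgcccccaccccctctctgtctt
Atp5g3 (chr3:79220665-79220814, minus strand): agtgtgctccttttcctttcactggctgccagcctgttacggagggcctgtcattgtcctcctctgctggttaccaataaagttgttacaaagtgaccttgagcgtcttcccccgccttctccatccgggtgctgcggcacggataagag
Ndufa4 (chr4:40975560-40975709, minus strand): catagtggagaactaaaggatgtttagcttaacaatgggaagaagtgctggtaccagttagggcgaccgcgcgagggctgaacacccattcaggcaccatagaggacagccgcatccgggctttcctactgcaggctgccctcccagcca
Ndufa4l2 (chr7:65242019-65242168, plus strand): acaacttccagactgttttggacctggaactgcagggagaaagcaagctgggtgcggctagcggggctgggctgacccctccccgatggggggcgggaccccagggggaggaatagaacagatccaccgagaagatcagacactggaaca

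Atp5g2, the most abundant of the trio, was the one with the NRF1 letters, read on both strands at one palindromic place. Atp5g1, the least abundant, held ACGTG letters at 2 places, and the stretches of Atp5g3, Ndufa4 and Ndufa4l2 held neither motif. Of the 78 members, 66 matched a RefSeq promoter. In the 300 bases from 250 before to 50 after the start, on either strand, the NRF1 core was found in 13.6% of these 66 and in 3.23% of 19005 protein-coding genes. The letters CCGGAAGT, an ETS core bound by GABPA, were in 10.6% and 4.99%, AAGATGGC, the YY1 core, in 22.7% and 3.92%, and ACGTG in 28.8% and 20.4%. In this wider window Atp5g3 held ACGTG as well, and Ndufa4l2 held the YY1 core. NRF1, GABPA and YY1 are factors known to drive nuclear genes of mitochondria. A match is a run of letters and not a measured binding site, and a link between motifs and level was not tested.

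Genes that work with the chain gave no calls either, where 2 of all 12276 genes tested (0.0163%) were called. At that share, 0 calls in lists of this size says little about them. Of 11 further chain genes and partners outside the name rule, such as Ndufab1, Usmg5 and the electron transfer flavoproteins, 0 were called. Their median log2 difference was -0.15. Sqor, which feeds electrons from sulfide into coenzyme Q, measured 31.9 ± 11.5 CPM in control, against 22.4 ± 3.45 CPM in high glucose (log2 difference -0.45, SE 0.23). Etfb, the beta subunit of the electron transfer flavoprotein, measured 95.8 ± 33.0 and 86.1 ± 48.6 CPM. Of 38 assembly factors 0 were called and 25 were below 0, with a median of -0.03. Among them Uqcc2, needed to build complex III, had a log2 difference of -0.29 and Ndufaf5, a complex I assembly factor, one of -0.23.

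Of 18 genes of pyruvate dehydrogenase and the citric acid cycle 0 were called, with a median of -0.08. In dam 3, 17 of the 18 were lower (94.4%, against 51.3% of all genes tested). Pc, pyruvate carboxylase, had a log2 difference of -0.28 and Fh, fumarase, one of -0.18. The 16 regulators of mitochondrial biogenesis gave 0 calls and a median of 0.07. Peo1, the mitochondrial DNA helicase, had a log2 difference of 0.30 (SE 0.21), higher in each pair. Ppargc1a, the coactivator PGC-1alpha, measured 1.65 ± 0.548 CPM in control, against 1.16 ± 1.17 CPM in high glucose. Its fitted difference of -0.87 (SE 0.81) came from dam 2 (-3.50) and was 0.08 without pair 2.

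The 68 genes of the mitochondrial ribosome gave 0 calls and a median of -0.06, with Mrpl14 at -0.34 and Mrpl20 at -0.23. For the 79 genes of the cytosolic ribosome the median was -0.20 with 0 called. Rps21, a protein of the small subunit, measured 384 ± 116 CPM in control, against 294 ± 159 CPM in high glucose. Rpl7a had a log2 difference of -0.56, but its row joins exons on 3 chromosomes and its counts are uncertain.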

How the data were processed

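Per the file headers, the authors deposited raw counts of read pairs per gene from featureCounts 1.5.1 (paired reads, reverse strand setting 2, mapping quality of at least 10, UCSC refGene annotation of rn6), with a gene length column in bases. Per the submitters' processing notes, reads were aligned with STAR 2.5, edgeR 3.12.1 was used, and the builds mm10 and rn6 are named, of which the headers name rn6. The test on these counts was that of edgeR 4.0.16 under R 4.3.3 (TMM, filterByExpr, robust quasi-likelihood F-test, dam pair as block, Benjamini-Hochberg adjustment over 12276 genes). CPM values use TMM-scaled library sizes. Differences in each pair use log2 CPM with a prior count of 2. TPM divides counts by the deposited length. DESeq2 1.42.0 was an alternative. Pairing comes from the series design and shared title stems. Deviations of log2 CPM from group means correlated at 0.474, 0.621 and 0.413 within dams and at -0.454 to -0.004 between dams. Deviations in a group sum to 0 for each gene, so positive values within dams force those between dams down. Replicates of a group differed by more than counting noise (chi-square per degree of freedom 184 to 247). Groups came from treatment labels. Counts by strand keep antisense genes apart, but genes with near-identical copies stay uncertain. The length trend was a loess over other genes (span 0.5). Named genes were members past the threshold, the 2 highest levels and the highest and lowest differences in each complex, up to 10 members with one direction in all pairs, isoform pairs, Cycs, Cyc1, the Sdh genes and Cox7a2l, and 2 genes per further list. Genes named for the contrast of pairs 1 and 2, for dam 2 and as Ndufs1 were chosen after their values were seen. The members and lists were chosen with earlier results of these data known.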

Additional observations from a re-analysis of the deposited data

How the results depend on the processing

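The number of respiratory chain genes called was 0 under every alternative run (RLE or upper-quartile factors, no filter, no replicate block, DESeq2, each pair left out, a minimum mean count of 100). The smallest adjusted p among members was 0.620, without pair 2, where 6 members, all lower, had an unadjusted p below 0.05. That run called 18 of 12394 genes tested. Its share of all genes below 0.05 unadjusted is not given here, so the 6 cannot be set against a background. Over all genes the calls were 2 with RLE factors, 4 with upper-quartile factors, 18 with no filter, 0 with no replicate block, 106 with DESeq2 and 18 to 55 when 1 pair was left out, against 2. The dam pairs are given by the design, and without that replicate block the members' median was -0.13 in place of -0.15. It was -0.18 with upper-quartile factors, and the length-adjusted and TPM-scale values in the report were alternatives chosen after seeing the data. Of 35 named members, 2, 8 and 9 changed sign without pair 1, 2 and 3. The median of complex I was 0.01 and that of Cycs 0.16 without pair 3. Cox6a2 (0.58), Cox4i2 (0.33), Ndufa4l2 (0.39) and Atp5s (-0.14) changed sign without pair 2. The depth limits mainly Cox6a2 and Ndufa10l1.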
